A study of Mus musculus with 4 samples.

Results

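Scaf11, Gm42418, AY036118 and Gm43305 are 4 of the 32287 features counted in single-cell RNA libraries of mouse blood leukocytes. They were chosen from these same counts, because their levels moved between libraries alike in several cell classes. Their differences between Cured and Relapsed libraries are therefore given as descriptions, with no test. All 4 symbols were found in each of the 4 libraries, with 34808 UMIs of Scaf11, 418469 of Gm42418, 15050 of AY036118 and 5345 of Gm43305 in the gated cells (UMI, unique molecular identifier, 1 per captured RNA molecule).

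The mice were C57BL/6J aged 10 weeks, in a model of acute lymphoblastic leukaemia, and all were treated with dasatinib, a tyrosine kinase inhibitor. Peripheral blood leukocytes were taken 1 week into dasatinib, with every animal in remission, and frozen. Outcome at day 100 divided the animals into Cured (6 mice) and Relapsed (6 mice), so both groups had carried the leukaemia and received the drug, and no untreated group was analysed here. Live cells were sorted after thawing, and cells of 3 mice were pooled in each 10x Genomics 5′ library, giving 2 Cured and 2 Relapsed libraries. Cells carry no mark of the mouse they came from, so a library counts as 1 replicate.

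Scaf11 encodes a nuclear protein related to the SR family, whose members bind RNA and take part in splicing. Its older name, Srsf2ip, records its binding to the splicing factor SRSF2. Gm42418 and AY036118 are annotated as long non-coding RNAs at a locus that resembles ribosomal RNA. Ribosomal RNA is transcribed by RNA polymerase I, lacks the poly(A) tail of messenger RNA, and makes up most of the RNA of a cell, so a small share of it can enter libraries primed on poly(A). Gm43305 is a non-coding transcript without an established function. RNA retained in the nucleus and RNA encoded in mitochondria both take a larger share of what remains when a cell loses its cytoplasm, which is why the share of mitochondrial UMIs is commonly read as a sign of cell quality.

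On GRCm38 with GENCODE M21, Scaf11 (ENSMUSG00000033228) lies on chromosome 15 from 96411699 to 96460843 on the minus strand and is protein coding. Gm42418 (ENSMUSG00000098178) lies on chromosome 17 from 39846958 to 39848788 on the plus strand, as a lincRNA with 1 transcript. AY036118 (ENSMUSG00000105361) lies inside it on the opposite strand, from 39847113 to 39848035. Both fall within the ribosomal RNA gene CT010467.1 (39846353 to 39848827, minus strand), which is not among the counted features. RefSeq lists the name Gm42418 as a synonym of Rn18s-rs5, a pseudogene of 18S ribosomal RNA. Gm43305 (ENSMUSG00000105703) lies on chromosome 14 from 54292443 to 54297456 on the minus strand as a processed transcript, 68237 bases from Trac, the constant gene of the T cell receptor alpha chain.

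The annotated AY036118 transcript of 923 bases is the reverse complement of a stretch of Gm42418 at 100% identity, and it covers 50.4% of Gm42418. The first 60 bases of AY036118 and the same interval of Gm42418 (chr17:39847976-39848035, GRCm38) are shown 5′ to 3′. Within the shared stretch the strand of a read is all that separates these features. No base is in capitals, since the pairing runs over the entire stretch.
AY036118: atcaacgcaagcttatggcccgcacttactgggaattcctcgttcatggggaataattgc
Gm42418: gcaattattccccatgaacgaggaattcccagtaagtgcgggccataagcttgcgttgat
Of all 31-base words of Gm42418, 96.3% occurred in CT010467.1 in the reverse orientation, and of those of AY036118, 100% occurred there in the same orientation. These orientations follow the annotated strand of CT010467.1, while RefSeq lists Gm42418 itself as a ribosomal RNA pseudogene. Which feature has the strand of ribosomal RNA was not tested. How the authors' counting treated strand and reads with several matches is not given in the sources used here, so counts of these features are uncertain. Gm43305 shared up to 16.2% of its 31-base words with another annotated transcript (Gm42031), and Scaf11 at most 4.1%.

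The libraries held 16157 barcodes and 37141352 UMIs, from 7184045 to 10840397 UMIs per library, and 15439 cells were kept. Cells were gated by marker genes into 6 classes, with 14364 cells in all and at least 22 cells of each class in each library. Each class expressed every one of its own markers, which is no check of the classes, since the gate used these markers. The gate itself also kept CD4 markers out of CD8 T cells and the reverse. The monocyte markers together reached 881 to 1128 CPM in CD8 T cells and 1289 to 1860 CPM in NK cells, against 5937 to 7276 CPM in monocytes. Relapsed replicate 1 stood apart by its red-cell RNA, with haemoglobin at 5.02% of UMIs against 0.330% to 0.411% elsewhere. Median UMIs per B cell were 2233 and 2342 in Cured against 1843 and 2034 in Relapsed libraries, and median mitochondrial shares were 2.12% and 2.28% against 2.77% and 2.37%, so both measures moved with the groups. Each pair of libraries shared 20 to 29 barcodes (0.518% to 0.677% of the smaller library).

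Scaf11 was highest in B cells and CD8 T cells. Values are given as CPM, the UMIs of a transcript per 1000000 UMIs of the class, in the order Cured 1, Cured 2, Relapsed 1, Relapsed 2. In B cells Scaf11 was at 893, 932, 1511 and 1424 CPM. Both Relapsed libraries lay above both Cured libraries, at 1468 ± 61.9 against 912 ± 27.5 CPM (mean ± SD, n = 2 each), 1.61 times as high. In CD8 T cells it was at 916, 1103, 1497 and 1627 CPM, again without overlap. In monocytes it was at 363, 308, 715 and 595 CPM and in NK cells at 254, 310, 351 and 368 CPM. The groups did not overlap in these classes either, but the NK values were closely spaced, 5 cells per library held 35.3% to 66.0% of the NK UMIs of Scaf11, and the groups overlapped in its mean UMIs per NK cell. CD4 T cells held 237, 471, 349 and 287 CPM and neutrophils 126, 171, 102 and 219 CPM, with overlapping groups. These low classes rested on 15 to 67 UMIs of Scaf11 per library. In CD4 T cells 5 cells per library held 64.5% to 95% of them. Without those cells the CD4 values were 98.2, 123, 24.2 and 52.3 CPM, higher in both Cured libraries, on very few UMIs. There were 47, 51, 23 and 22 CD4 T cells, so leaving out 5 took a larger part of the Relapsed libraries. Nothing is therefore read from the order of these values.

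Gm42418 differed from Scaf11 in its pattern over libraries. In B cells it was at 10045, 10145, 19580 and 10572 CPM. The high library was Relapsed replicate 1 alone, and Relapsed replicate 2 lay just above the Cured libraries. In CD8 T cells the values were 10912, 13687, 17284 and 18584 CPM, and in NK cells 11252, 11271, 16883 and 13341 CPM. In both classes the Relapsed libraries lay above the Cured libraries. Monocytes held 21615, 13039, 23586 and 18527 CPM and neutrophils 24535, 27222, 27395 and 15767 CPM, with overlap. In monocytes 5 cells per library held 29.4% to 66.7% of its UMIs. Without them the values were 9674, 10008, 13277 and 14214 CPM, where the groups did not overlap. There were 30, 91, 72 and 110 monocytes, so leaving out 5 took the largest part from Cured replicate 1. The share over all genes was not counted without such cells, and nothing is read from this separation.

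Few cells also held much of the sum in CD4 T cells. Gm42418 values there were 10399, 19951, 49126 and 10092 CPM. In Relapsed replicate 1 the 5 cells with the most Gm42418 held 84.2% of its UMIs among 23 cells. Without the 5 highest cells of each library the values were 6318, 8285, 10974 and 6350 CPM, still highest in Relapsed replicate 1. The median CD4 T cell gave 0.467%, 0.538%, 1.48% and 0.789% of its UMIs to Gm42418. The distribution of Relapsed replicate 1 was displaced in B cells as well. The median B cell gave 0.493%, 0.522%, 0.924% and 0.551% of its UMIs to Gm42418, and the 5th percentile was also highest in Relapsed replicate 1, at 0.194% against 0.0930% to 0.118%.

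**Figure D1:**
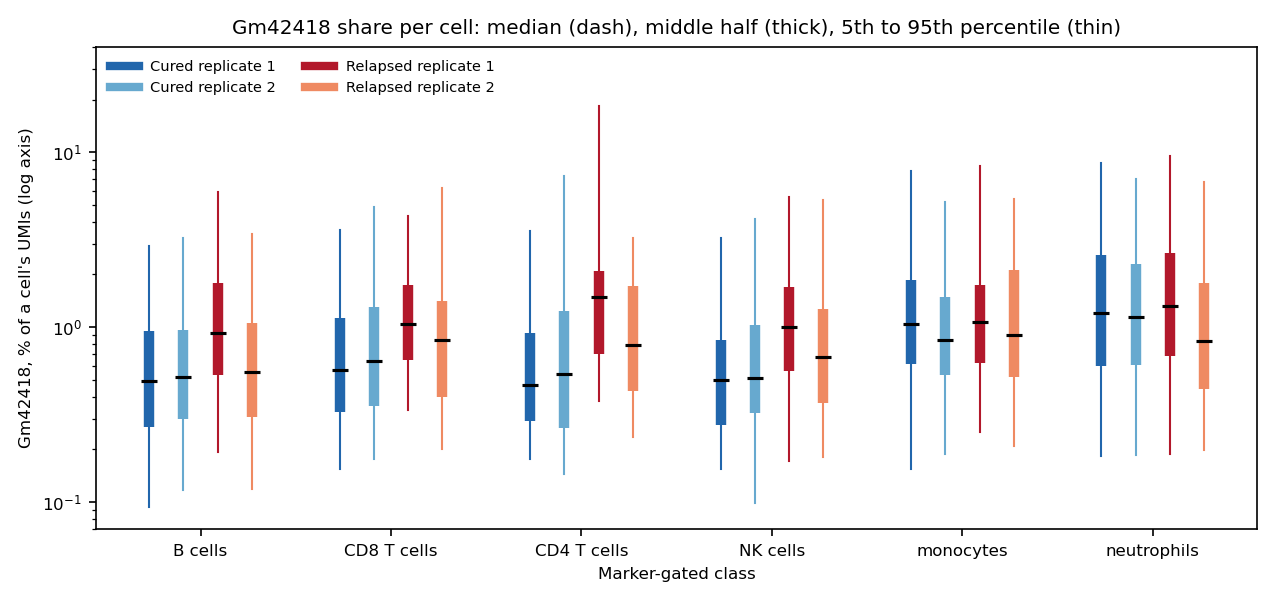
Share of each cell's UMIs that belongs to Gm42418, in % on a log axis, by class and library: dashes mark medians, thick bars the 25th to 75th percentile and thin lines the 5th to 95th percentile. The median B cell of Relapsed replicate 1 lies at 0.924%, and those of the other libraries lie between 0.493% and 0.551%.

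AY036118 was also highest in Relapsed replicate 1 in B cells. It was at 388, 431, 600 and 416 CPM there, and Relapsed replicate 2 fell between the Cured libraries. Relapsed replicate 1 was highest in CD8 T cells too, where the values were 452, 473, 627 and 456 CPM. In CD4 T cells the values were 360, 387, 541 and 728 CPM, the only class of the 6 in which the groups did not overlap, on 31 to 55 UMIs per library. Without the 5 cells highest in it per library the groups overlapped there as well. CD4 T cells numbered 47, 51, 23 and 22, so this again took a larger part of the Relapsed libraries. NK cells held 340, 557, 487 and 378 CPM, monocytes 350, 601, 580 and 432 CPM, and neutrophils 738, 788, 692 and 852 CPM. Part of the B cell value of Relapsed replicate 1 came from few cells, since 5 of its 2130 B cells held 15.2% of AY036118 UMIs.

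Gm43305 was highest in B cells and differed between the groups in the other direction. In B cells it was at 268, 243, 124 and 136 CPM, or 255 ± 18.1 in Cured against 130 ± 8.42 in Relapsed libraries (SD, n = 2 each). The Relapsed mean was 0.510 times the Cured mean, and the groups did not overlap. Monocytes held 125, 133, 41.8 and 48.3 CPM, with the same direction and no overlap, on 9 to 45 UMIs per library. NK cells held 94.7, 55.4, 39.8 and 56.7 CPM, where the groups overlapped. In CD8 T cells there were 14, 17, 6 and 4 UMIs, in neutrophils 1, 2, 4 and 2, and in CD4 T cells 1 UMI in all libraries together.

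**Figure D2:**
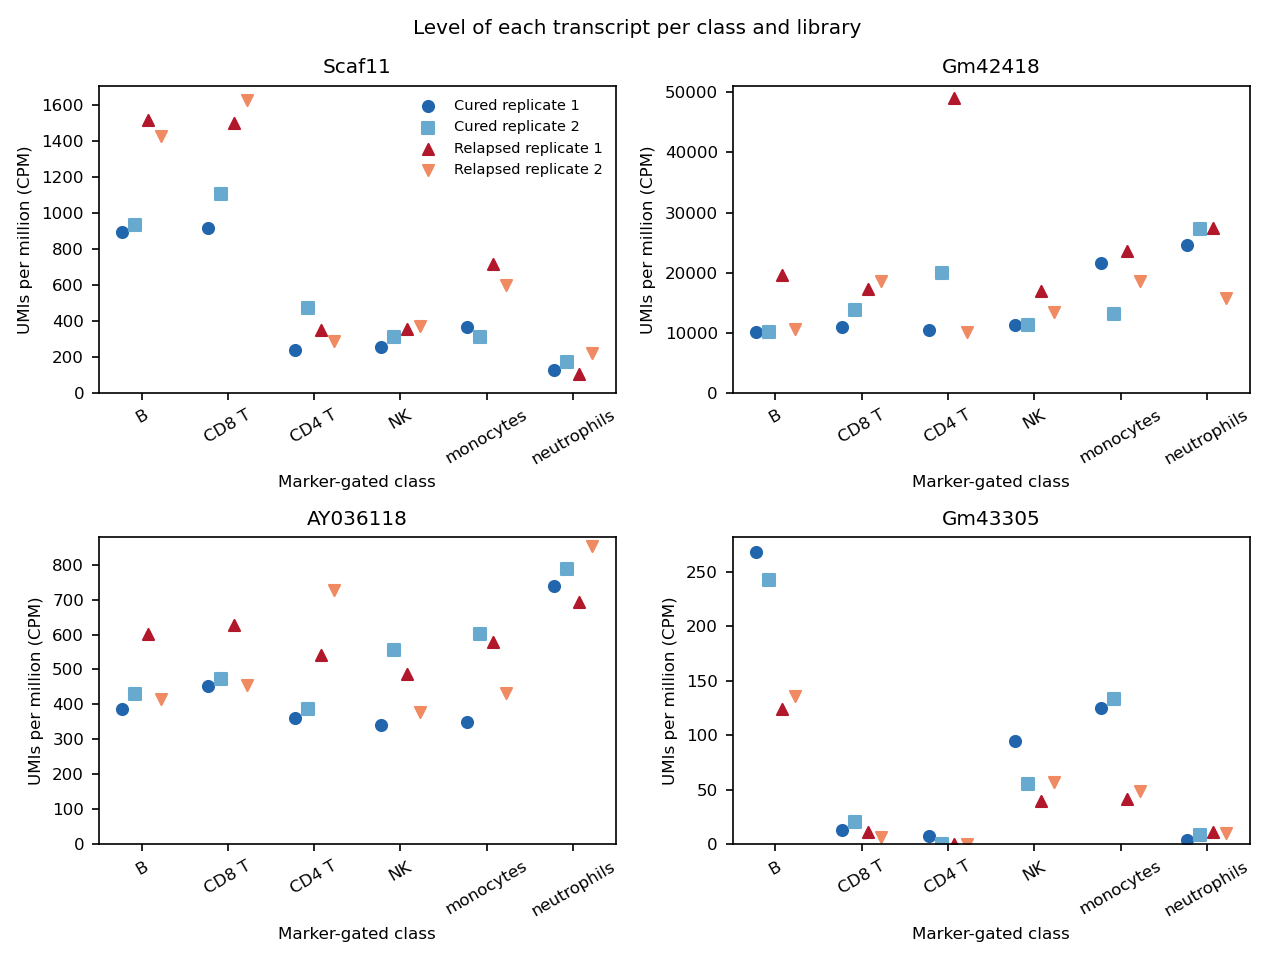
Level of each transcript in CPM by marker-gated class, with 1 point per library. Scaf11 is higher in both Relapsed libraries in B cells, CD8 T cells, NK cells and monocytes, Gm42418 in B cells is high in Relapsed replicate 1 alone, and Gm43305 in B cells and monocytes is higher in both Cured libraries.

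The 4 transcripts therefore did not shift alike between libraries. Among the members that passed the filter on low counts, the groups did not overlap for 3 of 4 in B cells (Scaf11, Gm42418 and Gm43305), where 45.1% of all tested genes did not overlap either. The corresponding counts were 2 of 3 in CD8 T cells (background 37.8%), 1 of 3 in CD4 T cells (32.3%), 2 of 4 in NK cells (37.7%), 2 of 4 in monocytes (34.9%) and 0 of 3 in neutrophils (31.2%). Gm43305 did not pass the filter in CD8 T cells, CD4 T cells or neutrophils. Since this contrast chose the members, nothing is read from these counts. Without Relapsed replicate 1 the ratio of means in B cells was close to even for Gm42418, a log2 ratio of Cured to Relapsed of -0.07 in place of -0.58, and for AY036118, -0.02 in place of -0.31. For Scaf11 that ratio was -0.64 without Relapsed replicate 1 and -0.69 with it, and for Gm43305 it was 0.91 and 0.97.

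The gap was also measured in cells brought to a common depth. Each cell was thinned to 1000 UMIs, and cells below that depth, 4.18% to 5.90% of B cells, were left out. Scaf11 was then 1.62 times as high in Relapsed B cells and Gm43305 2.04 times as high in Cured B cells. Among B cells of at least 1000 UMIs the differences were therefore as large at a common depth. In each of 5 bins of mitochondrial share and of depth of the kept B cells, the groups did not overlap for Scaf11 or Gm43305. The share over all genes was not counted per bin, and it was 45.1% over all kept B cells. Since this gap chose the members, nothing is read from its return in the bins. Outside B cells, Scaf11 at 1000 UMIs was 1.63 times as high in Relapsed libraries in CD8 T cells and 1.58 times in monocytes, without overlap. In NK cells it was at 325, 317, 365 and 312 CPM and the groups overlapped. The ratio of means there was 1.06 in place of 1.28, and the groups stood apart in 3 classes in place of 4. The share over all genes was not counted in thinned cells, and at full depth it was 31.2% to 45.1% by class. Nothing is read from these counts of classes, since the same contrast chose the members.

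Gm42418 at 1000 UMIs did not overlap in B cells, CD8 T cells and NK cells, the classes in which it did not overlap before. AY036118 in CD8 T cells was at 459, 529, 516 and 390 CPM, where Relapsed replicate 1 was no longer highest. In neutrophils it was higher in both Cured libraries, at 618, 699, 412 and 424 CPM, but only 102 of 242, 113 of 203, 148 of 375 and 85 of 177 neutrophils reached 1000 UMIs. Gm43305 in NK cells was at 58.4, 80.7, 19.2 and 43.9 CPM, without overlap, on few UMIs. As for Scaf11, no share over all genes stands beside these separations in thinned cells, and nothing is read from them. The part of depth and of mitochondrial share in the gap between the groups was not tested in any class.

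Scaf11 was spread unevenly between B cells. In cells thinned to 1000 UMIs, 39.4%, 41.2%, 47.2% and 48.0% of B cells had at least 1 UMI of Scaf11, and the cells with any held a mean of 2.28, 2.27, 3.17 and 3.08 UMIs. Rbm39, an RNA-binding splicing factor with a like number of UMIs in Cured B cells, was seen in more cells, 63.2%, 61.9%, 63.9% and 58.5%, with 1.61, 1.62, 1.65 and 1.54 UMIs in each. Ddx5, an RNA helicase, was seen in 70.1% to 80.2% of B cells. The variance of UMIs per cell divided by the mean, which is 1 for independent counting, was 2.78, 2.82, 4.57 and 3.55 for Scaf11. It was 0.97 to 1.19 for Ddx5, Rbm39 and Srsf5, the 3 splicing factors highest in B cells. Cells with 5 or more Scaf11 UMIs made up 4.24% and 4.15% of B cells in Cured and 10.6% and 10.3% in Relapsed libraries.

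By this ratio Gm42418 ranked 1, 1, 1 and 3 among the 4527 to 4712 genes with a mean of at least 0.02 thinned UMIs, with values of 43.7, 30.5, 50.7 and 27.3. AY036118 ranked 81, 82, 2 and 39, and Scaf11 ranked 88, 87, 55 and 75. The median gene was at 1.01 to 1.02. Gm43305 was nearer that median, at 1.10 to 1.30, with ranks of 141 to 380. In NK cells, a class low in Scaf11, 15.5% to 17.3% of cells had a Scaf11 UMI at the same depth, and in neutrophils 3.38% to 11.8%.

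**Figure D3:**
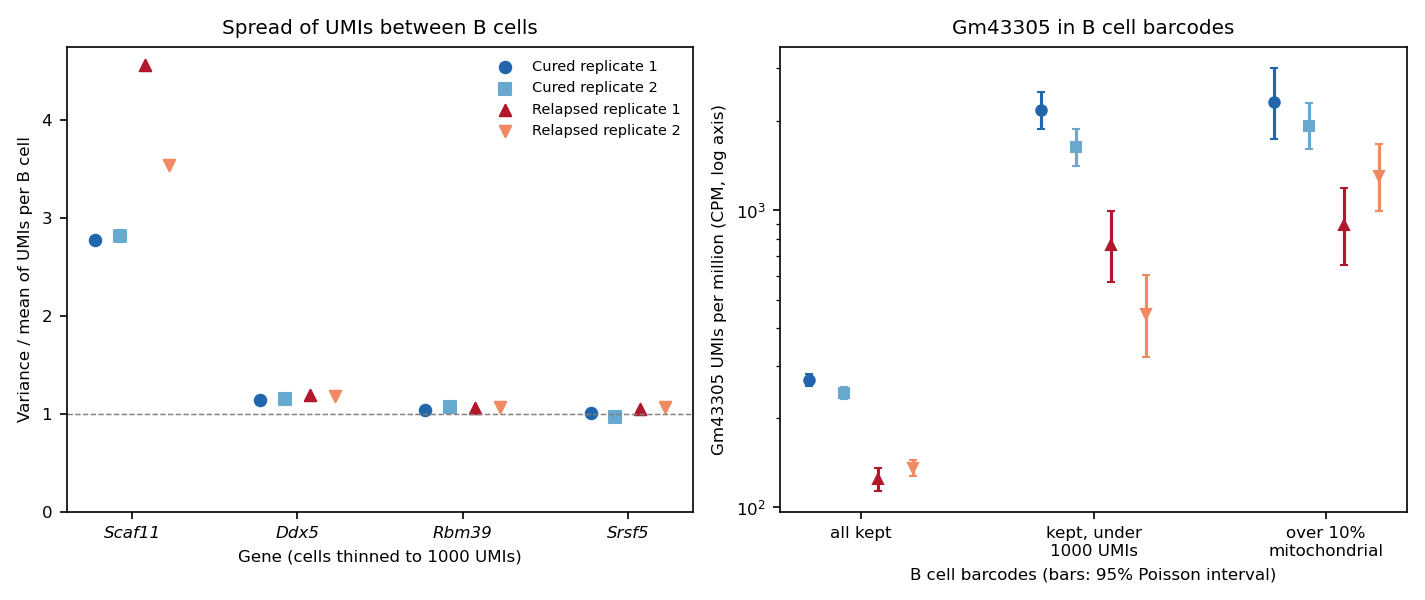
Left, variance divided by mean of UMIs per B cell at 1000 UMIs for Scaf11 and 3 splicing factors, with 1 point per library and a dashed line at 1; Scaf11 lies between 2.78 and 4.57. Right, Gm43305 in CPM (log axis) in all kept B cells, kept B cells under 1000 UMIs and B cell barcodes over 10% mitochondrial UMIs. Bars are 95% exact binomial intervals, which the axis label calls Poisson. The last set is highest in each library, but its interval overlaps that of kept B cells under 1000 UMIs except in Relapsed replicate 2.

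The classes were compared with B cells in a fit with the library as a block, which uses none of the contrast that chose the members. Adjusted p-values are from edgeR's quasi-likelihood test with Benjamini-Hochberg adjustment over 5821 genes. Scaf11 was lower than in B cells in NK cells (log2 fold change -2.38, SE 0.11, adjusted p = 8.65e-48), neutrophils (-2.92, SE 0.13, adjusted p = 1.27e-46), CD4 T cells (-1.94, SE 0.15, adjusted p = 3.41e-25) and monocytes (-1.66, SE 0.11, adjusted p = 6.66e-31), in 4 of 4 libraries each. CD8 T cells were slightly higher (0.33, SE 0.08, adjusted p = 0.000403), in 3 of 4 libraries. That call was lost with DESeq2 (adjusted p = 0.103), in thinned cells (0.116), with scaling by total UMIs (0.497) and without the library block (0.319). By mean CPM the order of Scaf11 levels was CD8 T cells, B cells, monocytes, CD4 T cells, NK cells and neutrophils, and CD4 T cells and NK cells overlapped between libraries.

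Gm43305 was lower than in B cells in NK cells (log2 fold change -2.14, adjusted p = 1.77e-45 by edgeR) and monocytes (-1.51, adjusted p = 1.23e-19), in 4 of 4 libraries. It did not pass the count filter of the class in CD8 T cells, CD4 T cells and neutrophils and entered the fit through the classes where it is high, so no test is given for these. It was at 13.1, 20.5, 11.2 and 6.12 CPM in CD8 T cells and at 3.95, 7.96, 10.7 and 9.97 CPM in neutrophils, below the B cells of the same library in 4 of 4. Gm42418 was higher in neutrophils (1.07, SE 0.29, adjusted p = 0.00320), in 4 of 4 libraries, and did not pass the test in the other classes, where it lay between -0.39 and 0.54. The interval of its difference in NK cells ran from -0.96 to 0.18.

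AY036118 was higher in neutrophils (0.83, SE 0.09, adjusted p = 1.68e-18) and in CD8 T cells (0.35, SE 0.08, adjusted p = 6.49e-05), in 4 of 4 libraries each. It was lower in NK cells (-0.56, SE 0.09, adjusted p = 1.04e-08), with a higher CPM than in B cells in 1 of 4 libraries. With scaling by total UMIs the NK value was -0.04, the CD8 value 0.12 and the Gm42418 value in NK cells 0.12. Among cells of at least 1000 UMIs, thinned to that depth, the neutrophil value of AY036118 was 0.12 and no longer passed the test. That setting lowers the depth and also leaves out the many neutrophils under 1000 UMIs, so these effects cannot be told apart. In this fit the median log2 fold change over all genes was -0.05 in CD8 T cells, -0.35 in CD4 T cells, -0.16 in NK cells, -0.18 in monocytes and -0.39 in neutrophils, and with scaling by total UMIs it was -0.27, -0.09, 0.35, 0.17 and -0.49. The members' values are to be read relative to these medians. Many genes differ between blood cell classes: 50.3% of tested genes passed in CD8 T cells, 27.6% in CD4 T cells, 52.2% in NK cells, 59.4% in monocytes and 76.8% in neutrophils.

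**Figure D4:**
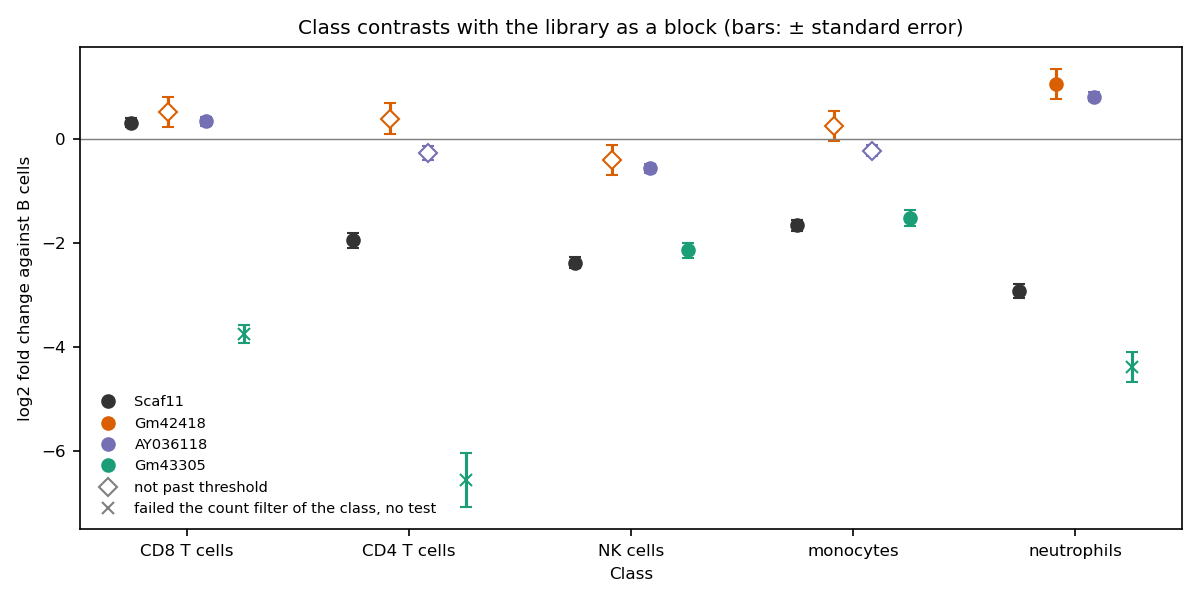
Fitted log2 fold change of each transcript against B cells with its standard error, for 5 classes; filled points passed the threshold, open diamonds did not, and crosses mark Gm43305 in classes where it failed the count filter and is given no test. Scaf11 falls below B cells in 4 of the 5 classes, and AY036118 rises in neutrophils by 0.83.

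Within B cells the members were set against the share of mitochondrial UMIs, computed without the members. AY036118 rose with that share. B cells of each library were split at its median share. Cells above the median held AY036118 at 472, 528, 678 and 478 CPM, and the other cells at 304, 334, 520 and 350 CPM. The high-share cells were above the low-share cells in 4 of 4 libraries, with a log2 fold change of 0.48 (SE 0.03, adjusted p = 4.89e-36 by edgeR). The gain was larger between the outermost of 5 equal bins of B cells, where the ratio was 2.01 to 2.25. The same direction was found in CD8 T cells (0.76, SE 0.08, adjusted p = 1.08e-09) and NK cells (0.67, SE 0.12, adjusted p = 6.31e-06), where the call was lost with DESeq2 (adjusted p = 0.0938). In the same comparison 7.28% of genes passed in B cells, 0.958% in CD8 T cells and 2.44% in NK cells.

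Gm42418, which covers AY036118 on the other strand, did not move with it. It was at 10334, 9130, 18959 and 10167 CPM in high-share cells and in low-share cells at 9755, 11152, 20226 and 10999 CPM, a log2 fold change of -0.16 (interval -0.30 to -0.02, adjusted p = 0.407). Scaf11 was also near even in B cells (-0.03, interval -0.07 to 0.01, adjusted p = 0.427). In NK cells Scaf11 was higher in high-share cells (0.67, SE 0.14, adjusted p = 0.000171), on 91 to 156 UMIs per library, and that call was lost with DESeq2, in thinned cells, without Cured replicate 1 and without Relapsed replicate 2. In CD8 T cells it was at 0.08 (adjusted p = 0.933).

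Gm43305 was higher in high-share B cells in 4 of 4 libraries, at 298, 277, 136 and 156 against 238, 208, 112 and 116 CPM (log2 fold change 0.31, SE 0.05, adjusted p = 2.52e-09). Among cells of at least 1000 UMIs, thinned to that depth, the value was 0.11 and did not pass the test (adjusted p = 0.664). The bins show where the difference lay: in each library the 4 lower bins were nearly level and the top bin stood above them, 1.51 to 1.74 times the bottom bin.

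Depth gave a different order. In B cells at or below the median depth of their library Gm43305 was at 318, 292, 146 and 138 CPM and in the deeper cells at 238, 214, 112 and 135 CPM, a log2 fold change of -0.26 for deep against shallow cells (SE 0.05, adjusted p = 8.97e-06, 4 of 4 libraries; DESeq2 adjusted p = 0.0551). In the lowest of 5 bins of depth it reached 504, 444, 199 and 160 CPM. Scaf11 in B cells (-0.06, adjusted p = 0.172), Gm42418 (0.09, adjusted p = 0.582) and AY036118 (-0.02, adjusted p = 0.776) did not pass the test. In NK cells Scaf11 was higher in deep cells (0.77, SE 0.16, adjusted p = 3.15e-05), in 4 of 4 libraries, and in CD8 T cells its value was -0.26 (adjusted p = 0.406), which passed without Cured replicate 1 (adjusted p = 0.000149) and without Cured replicate 2 (0.0407). Of all tested genes 10.2% passed in B cells, 5.43% in CD8 T cells and 10.8% in NK cells.

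**Figure D5:**
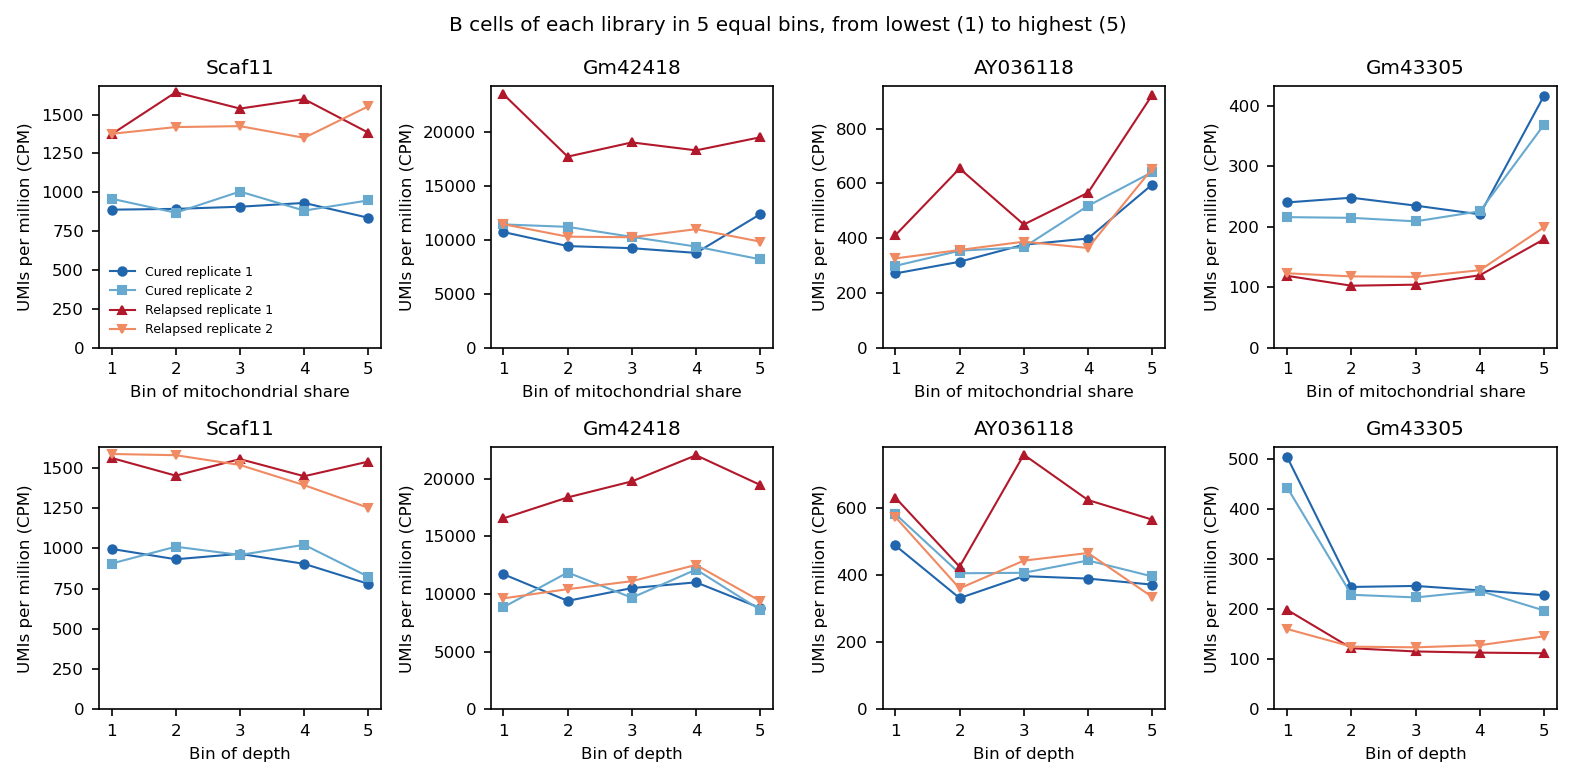
Level of each transcript in CPM in B cells of each library, in 5 equal bins of mitochondrial share (top row) and depth (bottom row), with 1 line per library. AY036118 in the top bin of mitochondrial share is 2.01 to 2.25 times the bottom bin, Gm43305 is highest in the top bin of mitochondrial share and the bottom bin of depth, and Scaf11 keeps both Relapsed libraries above both Cured libraries in each bin.

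Gm43305 was also high in B cell barcodes over the limit of 10% mitochondrial UMIs. They held it at 2305, 1922, 893 and 1301 CPM, 7.19 to 9.55 times the level of kept B cells of the same library. Their median depth was 586 to 639 UMIs, against 1843 to 2342 in kept B cells. Against kept B cells under 1000 UMIs the ratio was 1.06 to 2.92. Kept B cells under 1000 UMIs were 4.18% to 5.90% of B cells and held 4.21% to 11.6% of all Gm43305 UMIs, at 2172, 1630, 761 and 446 CPM. These shallow cells also held Malat1, an RNA retained in the nucleus, at 30119 to 36422 CPM, against 6001 to 8237 CPM in all kept B cells. AY036118 did the opposite of its pattern in kept cells: in B cell barcodes over the limit it was at 0.211 to 0.564 times, and Gm42418 at 0.285 to 0.522 times, the level of kept B cells. Against kept B cells under 1000 UMIs these ratios were 0.254 to 0.504 and 0.486 to 0.859. Counts of AY036118 in those barcodes were 4, 6, 14 and 11 UMIs.

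Barcodes dominated by haemoglobin gave a contrast between the members. There were 28, 25, 277 and 23 of them, most in Relapsed replicate 1. Scaf11 gave 0, 0, 4 and 1 UMIs and Gm43305 0, 0, 2 and 0. In Cured replicate 1 a count of 0 Scaf11 UMIs of 39160 allows up to 94.2 CPM by an exact interval for counting error. Gm42418 stood at 6537, 18229, 21232 and 9933 CPM and AY036118 gave 17, 44, 356 and 9 UMIs. These barcodes held both ribosomal RNA-like features and few or no UMIs of Scaf11 and Gm43305.

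Across single B cells the members hardly moved together. Spearman correlations of their CPM within a library lay between -0.03 and 0.12 for each pair, in sparse counts from cells that share depth and library. Across the 24 sums of 6 classes in 4 libraries, centred within each class, Pearson r of log2 CPM was 0.35 for Scaf11 and Gm42418, -0.01 for Gm42418 and AY036118, and -0.59 for Scaf11 and Gm43305. Sums of a library share its chemistry and depth, so these values describe 4 libraries. Each sum had the same weight, from 52220 UMIs in CD4 T cells to 7747868 UMIs in B cells. Genes of low CPM therefore rest on few UMIs in the small sums. By that measure, over 5065 genes, the genes most like Scaf11 were Luc7l2 (0.72), Mapkapk2 (0.71), Tm9sf3 (0.71), 2810001G20Rik (0.71) and Cul3 (0.70). Luc7l2, a splicing factor, was at 147, 145, 182 and 154 CPM in B cells.

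Most like Gm42418 were Rgl2 (0.85), Atp2b1 (0.84), Man2a1 (0.83), Arhgap45 (0.83) and Stxbp3 (0.82). The sums include the CD4 T cells of Relapsed replicate 1, where Gm42418 was at 49126 CPM in 23 cells. How far these correlations rest on that sum was not tested. In B cells Rgl2 ranged from 10.2 to 25.6 CPM and was again highest in Relapsed replicate 1. Most like AY036118 were Tnrc18 (0.82), Sun2 (0.80), Usp9x (0.77), Far1 (0.77) and Ap3d1 (0.77). Most like Gm43305 were Timm8b (0.79), Sertad1 (0.78), Nabp2 (0.73), Eno1 (0.72) and Thap11 (0.71).

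Genes of related function were read from lists. In B cells edgeR called 0 of 10244 genes between Cured and Relapsed libraries (0.0%), with 897 at an unadjusted p under 0.05 and 8 called by DESeq2. In CD8 T cells it called 27 of 5321 genes (0.507%), and DESeq2 called 0. With 1 library left out the count ran from 8 to 1868 in B cells and from 1 to 221 in CD8 T cells, highest without Relapsed replicate 2 and lowest without Cured replicate 2 in both. Of 46 tested splicing factors 0 passed in either class, with a median log2 fold change of Cured against Relapsed of -0.02 in B cells and -0.09 in CD8 T cells, beside -0.00 and -0.01 over all genes. In B cells Ddx5 was at 1669, 1424, 1389 and 1305 CPM, Rbm39 at 1018, 975, 1049 and 908 CPM and Srsf5 at 453, 433, 431 and 428 CPM. Ddx5 and Srsf5 were higher in both Cured libraries, the other direction from Scaf11, and the groups overlapped for Rbm39. Luc7l2, also on this list and given above, was higher in both Relapsed libraries, the direction of Scaf11. Over all tested genes in B cells 45.1% did not overlap.

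Genes of RNA polymerase I and the nucleolus, which make and process ribosomal RNA, gave 0 of 26 tested in B cells and 0 of 20 in CD8 T cells, with medians of 0.03 and -0.02. Npm1, a nucleolar protein, was at 797, 801, 733 and 792 CPM in B cells. Other counted features listed as ribosomal RNA-like were Gm26917, 617 bases from Gm42418, Lars2, a mitochondrial leucyl-tRNA synthetase, and Rmrp, the RNA of RNase MRP. Their sequences were not checked for this likeness. In B cells 0 of 3 passed and in CD8 T cells 0 of 2, with medians of -0.46 and -0.35. Gm26917 was at 71.1, 93.8, 143 and 88.6 CPM and Lars2 at 1006, 1069, 1697 and 1160 CPM in B cells. Relapsed replicate 1 was highest for both, as for Gm42418. Rmrp went the other way, at 2.81, 2.84, 1.17 and 2.59 CPM on 64 UMIs, lowest in Relapsed replicate 1.

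Nuclear-retained and small nucleolar host RNAs gave 0 of 12 in B cells (median -0.16) and 0 of 11 in CD8 T cells (median -0.22). Malat1 was at 6001, 6605, 8237 and 6756 CPM in B cells. Mitochondrially encoded transcripts gave 0 of 13 in each class (medians -0.24 and -0.28), with mt-Co1, a subunit of cytochrome c oxidase, at 5285, 5618, 7325 and 5868 CPM. Heat shock genes gave 0 of 9 in each (medians 0.25 and 0.18), with the chaperone Hspa8 at 1052, 845, 522 and 667 CPM. Cytosolic ribosomal protein genes gave 0 of 89 in B cells and 1 of 86 in CD8 T cells (medians -0.02 and -0.10). That gene was Rpl5, a protein of the large subunit, at 701, 741, 1303 and 823 CPM in CD8 T cells (log2 fold change -0.62, SE 0.16, adjusted p = 0.0377 by edgeR), and Relapsed replicate 1 was the high library.

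The same lists were counted in high-share against low-share B cells, where 7.28% of all genes passed in either direction. All 13 mitochondrially encoded transcripts were higher in high-share cells, which the split itself fixes. Of 89 ribosomal protein genes 70 fell and 1 rose (median -0.11, beside 0.00 over all genes), with Rps24 at -0.19 and Rps27 at -0.15. Malat1 rose (0.28, adjusted p = 6.08e-118) and Lars2 fell (-0.17, adjusted p = 4.88e-07). Gm26917 rose (0.20, adjusted p = 0.0190), and 5 of 46 splicing factors rose while 0 fell. Of all 9233 tested genes 312 rose and 360 fell. Of the nucleolar list 0 rose and 1 of 26 fell, of the nuclear-retained list 3 of 12 rose and 1 fell, and of the heat shock list 0 of 8 rose and 2 fell.

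In deep against shallow B cells 10.2% of all genes passed in either direction. There 76 of 89 ribosomal protein genes rose and 0 fell (median 0.18, beside -0.01 over all genes), and 7 of 26 nucleolar genes rose, Npm1 by 0.40. Malat1 fell by 0.17 on the log2 scale (adjusted p = 4.41e-14), the direction of Gm43305. Gm26917 (0.20, adjusted p = 0.0223) and Lars2 (0.15, adjusted p = 6.14e-06) rose with depth, while Gm42418 and AY036118 did not pass. Of 46 splicing factors 2 rose and 3 fell, near the share over all genes.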

How the data were processed

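The deposited values are raw UMI counts per gene and barcode, which the authors made with Cell Ranger 3.1.0 on mm10, per the submitters' processing notes; the annotation release and the handling of strand are not given in the sources used here. Barcodes with fewer than 200 genes (356) or over 10% mitochondrial UMIs (362) were left out. A cell joined a class with at least 2 of its markers (3 for monocytes) and no second lineage; 1075 kept cells had no class, among them 712 with markers of several lineages and 270 T cells with markers of both or neither of CD4 and CD8, and no doublet caller was run. The gate was set after the marker counts had been seen. UMIs were summed per library and class and tested by quasi-likelihood in edgeR 4.0.16 (R 4.3.3; TMM factors, filterByExpr, threshold 0.05), checked on simulated data. CPM uses all UMIs of a class. DESeq2 1.42.0, other scalings, filters, gates and cells thinned to 1000 UMIs were alternatives. Intervals of folds are at 95%, and intervals of counts cover counting error only.

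Members, markers and lists were chosen with earlier results of these data known. Named genes were the 4 members, the 5 genes most like each by Pearson r (log2 CPM, prior count 2, mean of at least 20 CPM), and, per list, up to 3 genes highest in B cells and up to 3 per direction past the Cured against Relapsed test in B cells or CD8 T cells. An exact permutation test of 2 against 2 libraries cannot go below 0.333. In the Cured against Relapsed fits p-values measure the spread between pools of mice. In the class comparisons and the splits the library is a block. Their p-values measure the spread left after the level of each library is taken off, not that between pools. For most genes this spread was estimated largely from all genes together, so very small p-values rest on that estimate. Class comparisons fit 24 sums and treat libraries, not cells, as replicates. Coordinates are of GENCODE M21 on GRCm38, and sequences are of its transcripts.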

Additional observations from a re-analysis of the deposited data

How the results depend on the processing

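Values are log2 fold changes unless named as counts, and the causes of the changes listed here were not tested. Thinning to 1000 UMIs also leaves out shallower cells. Of 240 alternative values of the class contrasts 217 kept direction and side of the threshold, and of 76 for the splits of B cells 66 did. Against B cells, Scaf11 in CD8 T cells was 0.37 with DESeq2, 0.22 thinned to 1000 UMIs, 0.10 with scaling by total UMIs and 0.32 without the library block, each past the threshold no longer. AY036118 lost its call in CD8 T cells when thinned (0.10), with total scaling (0.12) and without the block (0.34), in NK cells with total scaling (-0.040) and in neutrophils when thinned (0.12). It gained one in CD4 T cells (-0.57) and monocytes (-0.33) when thinned and in monocytes with a gate of 3 markers (-0.27). Its sign turned in CD4 T cells with DESeq2 size factors (0.051), the DESeq2 test (0.087) and total scaling (0.015), and in monocytes with total scaling (0.15). Gm42418 turned in NK cells with total scaling (0.12) and passed in CD4 T cells with DESeq2 (0.72). Total scaling and the fit without the library block were chosen after seeing the data.

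With 1 library left out, Gm42418 ranged from 0.30 to 0.67 in CD8 T cells, 0.14 to 0.73 in CD4 T cells and -0.51 to -0.26 in NK cells, and AY036118 from -0.47 to -0.070 in CD4 T cells and -0.42 to -0.023 in monocytes. The first 4 of these passed the threshold without Relapsed replicate 2, and the monocyte value passed without Cured replicate 2. By depth in B cells the ranges were -0.10 to 0.0032 for Scaf11 (past the threshold without Relapsed replicate 1), 0.035 to 0.15 for Gm42418 (past it without Cured replicate 1) and -0.073 to 0.010 for AY036118. The ratio of Cured to Relapsed means in B cells ranged from -0.96 to -0.067 for Gm42418 and -0.55 to -0.023 for AY036118.

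In the splits of B cells by mitochondrial share, Scaf11 was 0.029 when thinned and 0.023 with total scaling, and Gm43305 was 0.11 when thinned. By depth, Scaf11 passed with total scaling (-0.14), AY036118 was 0.012 with no mitochondrial limit and Gm43305 was -0.25 with DESeq2, no longer past the threshold. Uncalled values whose sign turned in other classes were Gm42418 by share in CD8 T cells (0.10 thinned, -0.27 to 0.19 with 1 library left out), Scaf11 there (-0.053 to 0.22), and by depth in CD8 T cells Gm42418 (-0.093 with total scaling, -0.041 to 0.14, past the threshold without Relapsed replicate 1) and AY036118 (0.051 with no count filter, -0.19 to 0.13). Gm42418 by depth in NK cells was 0.023 with no count filter.

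Genes called between Cured and Relapsed libraries in B cells, 0 in the fit reported, were 8 with DESeq2, 187 with no count filter, 1 thinned and 8 to 1868 with 1 library left out. In CD8 T cells, 27 as reported, they were 0 with DESeq2, 5 thinned and 1 to 221 with 1 library left out. A replicate block gave 170 calls in B cells and 0 in CD8 T cells. Replicate numbers name pools of different mice, and deviations of same-numbered libraries correlated at 0.05 in B cells and 0.01 in CD8 T cells over genes, so the numbers were not taken as pairs. With 2 libraries per group, depth limits Gm43305 outside B cells, where CD4 T cells held 1 UMI and neutrophils 9.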
